A study of Mus musculus with 16 samples.

Results

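The transcripts of 10 circadian clock genes were followed in the neonatal mouse cochlea after loss of Lgr5+ supporting cells: the activators Arntl and Clock, the repressors Per1, Per2, Per3, Cry1 and Cry2, the nuclear receptor Nr1d1, and the output and repressor genes Dbp and Ciart. They were picked by symbol from 47729 genes with values, and one of them, Ciart, was singled out because its level rose more in input than in IP after damage, so its values are given as a description with no test. All 10 were among the 16994 genes that passed the filter on low values. The other 9 members were also chosen with earlier results of these data known, so their counts are descriptive.

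The study asked how the neonatal cochlea replaces inner phalangeal cells (IPhCs), which are among the Lgr5+ supporting cells killed, and how cells of the greater epithelial ridge (GER) respond to this damage. Control mice carried GLAST-CreERT/+ and Rpl22-HA/+, and DTR mice carried Lgr5-DTR/+ (a diphtheria toxin receptor and EGFP knocked into Lgr5, and so driven by the Lgr5 promoter) with the same 2 alleles. Per the study's methods, both genotypes received diphtheria toxin and tamoxifen on the day after birth, whereas the sample labels call the controls untreated. Cochleae of both were taken on postnatal day 4, after the spiral ganglion, Reissner's membrane and the lateral wall had been taken off, and each of the 4 replicates of a genotype was a pool of cochleae from several mice. A small share of each homogenate was kept as input, which is RNA of the whole cochlear duct, and the rest was incubated with anti-HA to immunoprecipitate (IP) ribosomes carrying HA-tagged Rpl22, which Cre recombination restricts to cells with GLAST (Slc1a3) promoter activity. Thus 16 libraries from 8 pools formed 4 groups, an input and an IP group for control and for DTR mice. The hour of collection is not given in the sources used here.

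In most mammalian cells a feedback loop keeps daily time. BMAL1 (Arntl) and CLOCK bind E-box elements and switch on the Per, Cry, Nr1d1, Dbp and Ciart genes, whose products then act back on the loop: PER and CRY proteins and CIART repress BMAL1-CLOCK, and NR1D1 (REV-ERB alpha) represses Arntl. DBP activates D-box elements, and Per1 and Per2 are also induced acutely by signals that raise cAMP or calcium. The cochlea has a clock of this kind, and its transcripts differ with the hour of the day.

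The labels were checked on 2 genes, in CPM (reads per gene scaled so that each library sums to 1000000). Lgr5 was 59.0 to 66.1 CPM in control input and 11.2 to 19.6 CPM in DTR input, and 31.4 to 40.0 CPM in control IP against 8.13 to 11.3 CPM in DTR IP. Libraries held 28089836 to 41966310 counted reads, and the member with the fewest reads, Ciart in control input replicate 1, still had 231. Slc1a3 itself was not higher in IP, at 218 to 264 CPM in control IP and 274 to 303 CPM in control input. After damage it was lower in IP, at 195 to 239 CPM in DTR IP and 247 to 295 CPM in DTR input. Of 8 markers of supporting cells and the GER, 6 fell in input and 5 in IP after damage, where 5.21% and 7.30% of all tested genes fell. The 8 markers summed to 6106 to 9039 CPM in control input and 4644 to 5450 CPM in DTR input. Hair cell markers, of the cochlear duct but not of GLAST-Cre+ cells, summed to 229 to 357 CPM in control input and 58.6 to 81.5 CPM in control IP. Of these 7 markers 6 were lower in control IP and 1, Atoh1, was higher (mean 6.77 CPM in input and 12.6 CPM in IP). Of the 8 supporting cell and GER markers, 2 were higher and 4 lower in control IP than in control input. Between these groups 39.9% of all tested genes differed. In bulk RNA, fewer cells of a type and less RNA per cell cannot be told apart.

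The promoter windows of 4 members are shown because they hold matches to the letters of elements through which the loop acts. Windows of 250 bases before the transcription start were read from RefSeq on GRCm38.p6 for 9 of the 10 members (13 windows), and the E-box CACGTG, its variant CACGTT and the D-box TTATGTAA were searched on both strands, with matches in capitals.
Ciart, chr3:95882229-95882478, minus strand: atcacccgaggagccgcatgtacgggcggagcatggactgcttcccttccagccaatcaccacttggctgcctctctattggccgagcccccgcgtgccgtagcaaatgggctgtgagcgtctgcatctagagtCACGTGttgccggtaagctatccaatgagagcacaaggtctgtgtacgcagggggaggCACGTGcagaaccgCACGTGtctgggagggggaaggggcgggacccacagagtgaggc
Nr1d1, chr11:98775378-98775627, minus strand: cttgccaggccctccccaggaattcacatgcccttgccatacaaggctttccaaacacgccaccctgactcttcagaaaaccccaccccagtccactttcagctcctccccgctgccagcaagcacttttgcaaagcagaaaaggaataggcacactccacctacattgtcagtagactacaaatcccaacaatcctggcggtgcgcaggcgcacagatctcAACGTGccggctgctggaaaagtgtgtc
Cry1, chr10:85185055-85185304, minus strand: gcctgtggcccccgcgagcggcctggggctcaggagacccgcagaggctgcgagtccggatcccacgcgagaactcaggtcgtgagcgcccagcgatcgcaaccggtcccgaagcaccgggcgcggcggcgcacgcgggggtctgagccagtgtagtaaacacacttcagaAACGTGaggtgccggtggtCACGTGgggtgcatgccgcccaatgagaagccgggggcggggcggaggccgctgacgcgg
Per3, chr4:151044666-151044915, minus strand: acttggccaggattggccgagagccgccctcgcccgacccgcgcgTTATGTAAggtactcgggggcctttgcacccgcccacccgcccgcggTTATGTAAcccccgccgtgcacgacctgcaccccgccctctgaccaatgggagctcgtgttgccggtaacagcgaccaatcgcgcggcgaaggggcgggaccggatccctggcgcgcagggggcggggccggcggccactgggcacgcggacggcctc
The Ciart window held 3 E-boxes, at 116, 58 and 44 bases before the start. An E-box was in 6.02% of 32851 windows of this length, and 3 or more were in 20 of them (0.0609%). Cry1 had 1 E-box at 60 bases and 1 CACGTT at 79 bases, Nr1d1 had 1 CACGTT at 28 bases, and Per3 had 2 D-boxes at 205 and 158 bases. Per1, with 1 E-box, and Cry2, with 1 CACGTT, had their match at 166 bases and are not printed. The windows of Dbp, Arntl and Clock, and the other window of Per1, held no match. CACGTT was in 3.85% of windows and the D-box in 0.819%. The cAMP response element TGACGTCA, in 1.55% of windows, was in none of the 13. These are matches of letters and were not tested as sites, and GENCODE places some Ciart and Cry1 starts further upstream than RefSeq.

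Among the members Cry2 had the highest mean level in undamaged cochleae, in input and in IP. Per kilobase of exon, which allows levels of genes to be compared, control input ran from 15.9 CPM per kb for Cry2 (SD 2.40, n = 4) and 13.1 CPM per kb for Cry1 (SD 1.75) down to 1.56 CPM per kb for Per2 (SD 0.355). Cry2 and Cry1 overlapped between replicates, as did Dbp (8.95 CPM per kb) with Nr1d1 (7.77 CPM per kb), Nr1d1 with Arntl (6.79 CPM per kb), and Arntl with Per3 (5.49 CPM per kb). In control IP Cry2 (30.9 CPM per kb, SD 5.42) did not overlap with Dbp, the next gene (12.2 CPM per kb, SD 3.22), and Dbp overlapped with Cry1 (8.89 CPM per kb), as Cry1 did with Per3. In DTR input Nr1d1 was first at 88.8 CPM per kb (SD 27.8), without overlap with Cry1, the next gene, at 25.6 CPM per kb (SD 5.51). Ciart, at 2.87 CPM per kb in control input, was at 16.6 CPM per kb, where it overlapped with Dbp and Cry2.

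**Figure D1:**
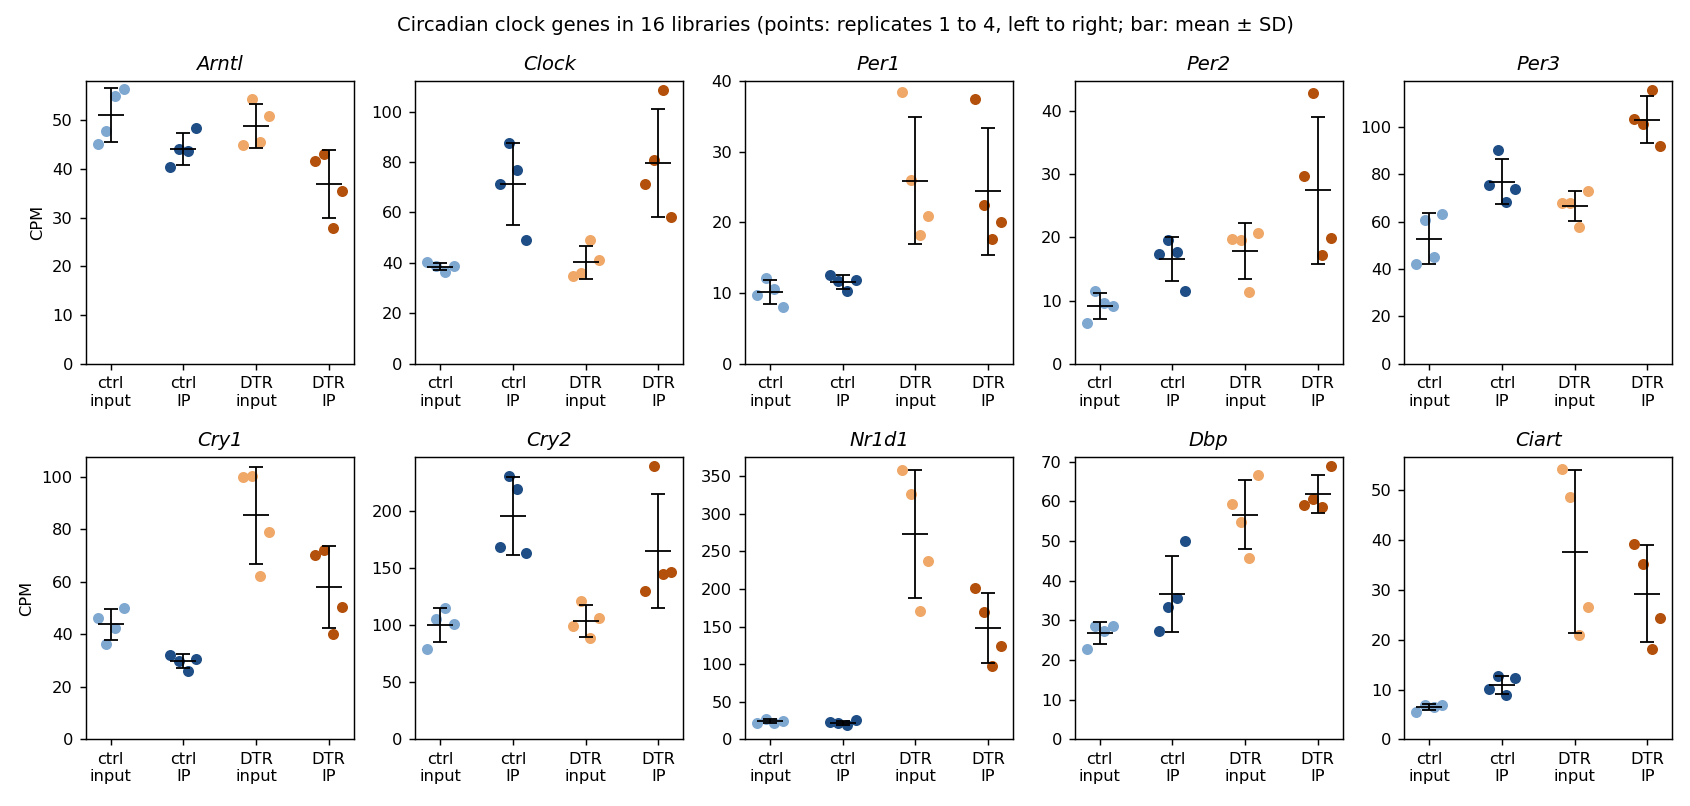
CPM (y axis, from 0) of the 10 clock genes in the 4 groups. Points are the 4 replicates and bars are mean ± SD. Nr1d1 was 21.4 to 27.0 CPM in control input and 171 to 359 CPM in DTR input, whereas Arntl overlapped between these groups.

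After damage Nr1d1, Per1, Cry1 and Dbp rose in both fractions, Per2 rose in input and Per3 in IP, while Arntl, Clock and Cry2 passed the test in neither. Of the 9 members tested, 5 rose and 0 fell in input at an adjusted p under 0.05 (limma on log2 CPM, Benjamini-Hochberg over all tested genes), where 7.17% of all tested genes rose and 5.21% fell. In IP 5 rose and 0 fell, where 8.44% of all tested genes rose and 7.30% fell. The median log2 fold change (LFC) of the 9 was 0.92 in input and 0.59 in IP, beside -0.02 and 0.00 over all tested genes. By the study's stricter criteria (LFC of at least 1, adjusted p under 0.05 and separation of the groups over 1.5), 3 rose in input (Nr1d1, Per1 and Dbp, 1.34% of all tested genes) and 1 in IP (Nr1d1, 1.12% of all tested genes). The input and IP comparisons use libraries of the same pools and are not independent of each other. Whether the hour of collection differed between control and DTR mice is not known, and its part in these differences was not tested.

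The 2 activators did not pass in either fraction. Arntl (chr7:113207465-113314126), which encodes BMAL1, was 45.1 to 56.4 CPM in control input and 44.8 to 54.4 CPM in DTR input, with an LFC of -0.07 (95% interval -0.35 to 0.21). In IP it was 40.4 to 48.3 CPM in controls and 27.8 to 42.9 CPM after damage. The LFC was -0.30 (95% interval -0.58 to -0.02, SE 0.13, adjusted p = 0.14), and this interval is not adjusted for the number of genes tested. These groups overlapped. Clock (chr5:76209868-76304792), its partner, had an LFC of 0.04 in input (95% interval -0.32 to 0.40) and 0.13 in IP (95% interval -0.23 to 0.49).

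Nr1d1, the receptor that represses Arntl, had the largest change among the members. It was 22.3, 27.0, 21.4 and 24.9 CPM in control input replicates 1 to 4, and 359, 326, 171 and 237 CPM in DTR input. The IP libraries held 23.4, 21.6, 19.0 and 25.5 CPM in controls, and 201, 169, 97.0 and 124 CPM after damage. Every DTR library was well above every control library, and replicate 3 was the lowest of the DTR libraries in input and in IP. Mean CPM was 11.4-fold higher in input and 6.62-fold higher in IP, and the fitted LFC was 3.39 (SE 0.22, adjusted p = 2.2e-09) and 2.68 (SE 0.22, adjusted p = 5e-08). By LFC it ranked 27 of 16994 genes in input and 42 in IP. The ratio of Nr1d1 to Arntl CPM was 0.388 to 0.578 in the 8 control libraries, 3.75 to 8 in DTR input and 3.49 to 4.85 in DTR IP. Nr1d1 (GRCm38 chr11:98767932-98775333) shares 263 exon bases, 8.55% of its exons, with Thra on the other strand. The library kit does not mark strand, so reads of these bases cannot be told apart by strand. How such reads were counted is not given in the sources used here. Thra was 110 ± 7.37 CPM in control input and 112 ± 8.63 CPM in DTR input (SD, n = 4).

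Ciart, the gene of a repressor that binds BMAL1, was the gene that the choice of members turned on. It was 5.50, 6.93, 6.53 and 6.99 CPM in control input, and 54.3, 48.7, 21.0 and 26.6 CPM in DTR input. The IP level was 10.1, 12.7, 8.94 and 12.2 CPM in controls, and 39.2, 35.2, 18.1 and 24.3 CPM after damage. No control library overlapped with a DTR library of the same kind, and DTR replicates 1 and 2 stood above replicates 3 and 4 in input and in IP. Mean CPM was 5.80-fold higher in input and 2.66-fold higher in IP, and the fitted LFC was 2.35 and 1.25. Ciart (chr3:95878503-95882251) shares no exon bases with another annotated gene.

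Per1 and Per2, the repressors that are also induced by acute signals, were both higher in input. Per1 (chr11:69095217-69109960) was 9.79, 12.1, 10.6 and 8.05 CPM in control input and 38.5, 25.97, 18.3 and 20.9 CPM in DTR input. Its IP levels were 12.6, 11.6, 10.3 and 11.8 CPM in controls and 37.5, 22.5, 17.6 and 20.02 CPM after damage. DTR replicate 1 was the highest library in both, and the groups did not overlap. The LFC was 1.28 in input (SE 0.21, adjusted p = 0.00037) and 0.92 in IP (SE 0.21, adjusted p = 0.0059).

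Per2 (chr1:91415982-91459324) was 6.41, 11.5, 9.53 and 9.16 CPM in control input and 19.7, 19.5, 11.3 and 20.7 CPM in DTR input, where replicate 3 was just under the highest control. In IP it was 17.4, 19.5, 17.7 and 11.5 CPM in controls and 29.7, 42.9, 17.2 and 19.9 CPM after damage, and these groups overlapped. It rose in input (LFC 0.92, SE 0.24, adjusted p = 0.017), a call that was lost without control input replicate 1 (adjusted p = 0.068), DTR input replicate 1 (0.051) or DTR input replicate 2 (0.055), and with no filter on low values (0.10). In IP the LFC was 0.59 (adjusted p = 0.12), and it passed without DTR IP replicate 3 (adjusted p = 0.048) and when the replicate number entered as a block (adjusted p = 0.049).

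Per3 (chr4:151003652-151044665), another PER gene, was higher in IP after damage by a small margin. It was 75.4, 90.1, 68.1 and 73.9 CPM in control IP and 103, 101, 116 and 91.8 CPM in DTR IP. These groups did not overlap, and the LFC was 0.41 (adjusted p = 0.030). The call was lost without control IP replicate 1 or 3 or DTR IP replicate 1 or 3 (adjusted p = 0.074, 0.099, 0.052 and 0.087), with edgeR (0.071) or DESeq2 (0.053), and with no filter on low values (0.097). In input Per3 was 41.9 to 63.0 CPM in controls and 57.8 to 72.7 CPM after damage (LFC 0.33, adjusted p = 0.10), and it passed without control input replicate 4 (adjusted p = 0.045).

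Cry1 and Cry2 encode the cryptochromes, which with PER form the repressing complex, and Cry1 rose. Cry1 (chr10:85131700-85185064) was 46.2, 36.4, 42.6 and 50.1 CPM in control input and 100, 100.4, 62.2 and 79.1 CPM in DTR input. Levels in IP were 32.3, 30.0, 25.98 and 30.5 CPM in controls and 70.3, 72.1, 40.0 and 50.3 CPM after damage. The groups did not overlap in either, and the LFC was 0.92 in input and 0.91 in IP (SE 0.17 and adjusted p = 0.0011 in both). Cry2 (chr2:92403646-92434043) had an LFC of 0.05 in input (95% interval -0.31 to 0.42) and -0.27 in IP (95% interval -0.64 to 0.10). Its 4 DTR IP libraries were 130, 239, 144 and 146 CPM against 163 to 230 CPM in control IP, and without replicate 2 the LFC was -0.47 (adjusted p = 0.042).

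Dbp (chr7:45705088-45710203), whose product activates D-box genes, rose in both fractions. It was 22.7, 28.6, 27.3 and 28.5 CPM in control input and 59.4, 54.9, 45.7 and 66.7 CPM in DTR input. In the IP libraries it was 27.4, 33.4, 35.5 and 50.1 CPM in controls and 59.0, 60.6, 58.6 and 69.0 CPM after damage. No DTR library was as low as any control library of its kind, and the LFC was 1.04 in input (SE 0.17, adjusted p = 0.00022) and 0.76 in IP (SE 0.17, adjusted p = 0.0036). Dbp shares 539 exon bases (18.01%) with Sphk2 on the other strand, which was 48.6 CPM in control input and 44.9 CPM in DTR input.

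**Figure D2:**
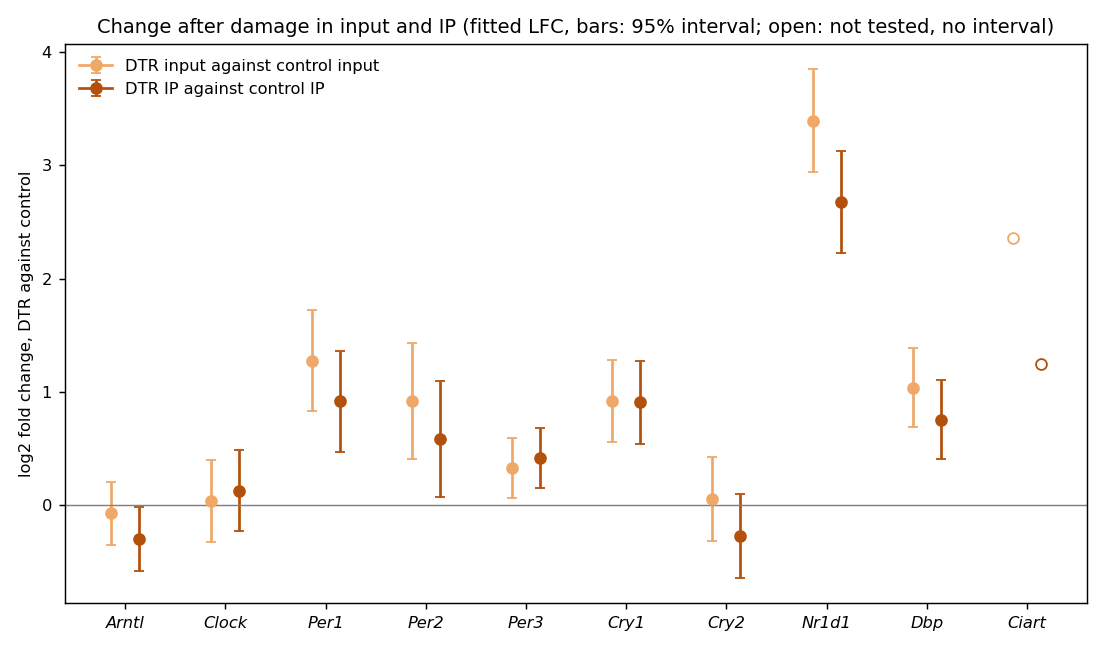
LFC (y axis) of DTR against control for each clock gene in input (light) and IP (dark), with 95% intervals from the fit over all libraries. Nr1d1 was at 3.39 and 2.68, Clock at 0.04 and 0.13, and Arntl at -0.07 and -0.30, where its interval in IP lay below 0. Ciart, at 2.35 and 1.25, is open because it was not tested.

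Whether the change after damage was the same in IP and in input was asked with the difference between the LFCs. This difference passed for 0 of 9 members (limma, adjusted p under 0.05), beside 2 of 16994 genes (0.0118%). With edgeR and DESeq2 it passed for 0 of 9 as well, and 1 of 9 had an unadjusted limma p under 0.05, beside 5.12% of all genes. That member was Nr1d1, with a difference of -0.72 (IP minus input, SE 0.30, adjusted p = 0.89). IP and input of a pool come from 1 homogenate, and blocking on the pool gave the same difference an SE of 0.14 and an adjusted p of 0.047, a fit that called 40 genes (0.235%). Over the alternatives its adjusted p ranged from 0.047 to 1. The ratio of IP to input CPM of Nr1d1 was 0.799 to 1.05 in the 4 control pools and 0.519 to 0.568 in the 4 DTR pools, with no overlap.

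For Ciart this pattern was part of the choice and is only described. Its ratio of IP to input was 1.37 to 1.83 in control pools, above 1 in each, and 0.722 to 0.916 in DTR pools, below 1 in each, and the difference of LFCs was -1.10. Per1 was 0.959 to 1.47 in control pools and 0.865 to 0.973 in DTR pools, which overlapped. Cry1, by contrast, had ratios of 0.609 to 0.823 and 0.635 to 0.719, and its difference was -0.01 (95% interval -0.53 to 0.50).

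**Figure D3:**
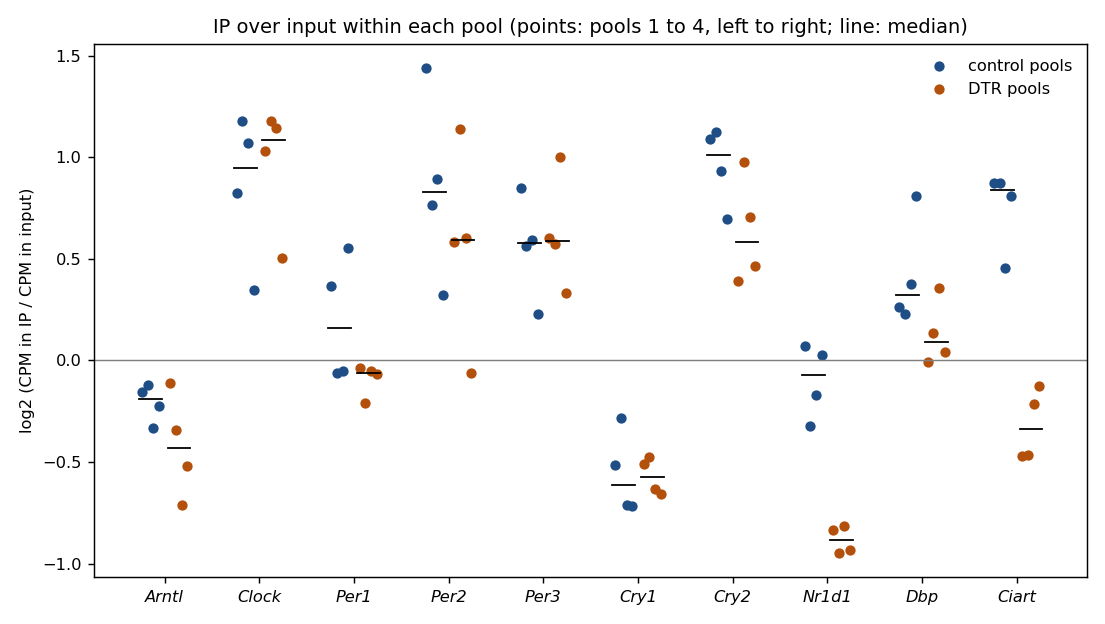
Log2 ratio of IP to input CPM (y axis) within each of 4 control and 4 DTR pools for the clock genes, with the median as a line. The DTR pools lie below the control pools for Nr1d1 and Ciart, while Cry1 and Clock overlap.

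Between the fractions of the undamaged cochlea, 5 of 9 members other than Ciart differed, beside 39.9% of all tested genes. Clock (LFC 0.85, adjusted p = 0.00065), Cry2 (0.98, 0.00021), Per2 (0.85, 0.0095) and Per3 (0.55, 0.0017) were higher in IP, and Cry1 was lower (-0.56, 0.015). With no filter on low values the calls of Per2 (adjusted p = 0.062) and Cry1 (0.081) were lost. Dbp had an LFC of 0.40 (adjusted p = 0.066), which passed when blocked on pool (0.012), with edgeR (0.016) or DESeq2 (0.013), on CPM without quantile normalization (0.040), and without control IP replicate 1 (LFC 0.53, adjusted p = 0.016). Ciart, whose control values entered the choice, had an LFC of 0.76 and was not tested.

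In the damaged cochlea 6 of 9 members differed between IP and input, beside 39.2% of all tested genes. Clock (LFC 0.94), Cry2 (0.66) and Per3 (0.63) were higher in IP, and Arntl (-0.45), Cry1 (-0.57) and Nr1d1 (-0.83) were lower, with adjusted p of 0.00029 to 0.013. The Cry1 call was lost without DTR input replicate 2 (adjusted p = 0.051) or DTR IP replicate 3 (0.058), and with no filter on low values (0.076). Per2 had an LFC of 0.52 (adjusted p = 0.10), which passed when blocked on pool (adjusted p = 0.019), with DESeq2 (0.040) and without DTR IP replicate 3 (LFC 0.70, adjusted p = 0.037).

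Some members ranked the DTR pools in 1 order in input and IP. Nr1d1, Per1 and Ciart ran, from high to low, in the order replicate 1, 2, 4 and 3 in DTR input and again in DTR IP, and Cry1 in the order 2, 1, 4 and 3 in both. The order was thus identical for 4 of 10 members, beside 11.3% of all tested genes, and in the control pools for 0 of 10, beside 7.41%. The highest DTR input library was 2.59 times the lowest for Ciart, 2.10 times for Nr1d1 and 2.11 times for Per1, against 1.27, 1.27 and 1.51 times in control input, and over all tested genes the median of this ratio was 1.38 in DTR input and 1.31 in control input.

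Acute stimulation induces immediate early genes within minutes. Of 12 such genes 8 rose and 0 fell in input, where 7.17% of all tested genes rose, and 6 rose and 0 fell in IP, where 8.44% rose. Egr2, Egr3, Ier3 and Nr4a1 passed in neither, with an LFC of -0.40 to 0.27 in input. The summed level of the 12 genes was 375 to 462 CPM in control input, 1349 to 3588 CPM in DTR input, 542 to 590 CPM in control IP and 1214 to 2309 CPM in DTR IP, and none was at 0. Egr1 was 2489, 2273, 687 and 1352 CPM in DTR input and 45.8 to 75.7 CPM in control input, and Fos was 89.0, 65.7, 23.2 and 44.4 CPM against 4.67 to 7.22 CPM. Egr1 and Fos, 2 of the 12, had the same order of DTR pools as Nr1d1, Per1 and Ciart in input and in IP, and the other 10, Jun among them, did not. Of 9 genes induced by glucocorticoids 1 rose and 0 fell in input, and 1 rose and 1 fell in IP. Of 5 Schwann cell markers 4 fell in input and 2 in IP, where 5.21% and 7.30% of all tested genes fell. The sum of these markers was 764 to 1193 CPM in control IP and 523 to 747 CPM in DTR IP. In input they summed to 2421 to 4340 CPM in control input and 1203 to 1940 CPM in DTR input, and 4 neuron markers, of which 0 of 3 tested passed, to 84.7 to 435 CPM and 35.0 to 350 CPM, with replicates 1 and 2 above 3 and 4 in all 4 groups. Of 4 macrophage markers 2 rose in each fraction, and they summed to 47.9 to 54.4 CPM in control input and 61.2 to 96.1 CPM in DTR input. The part of these shifts in the members' changes was not tested.

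**Figure D4:**
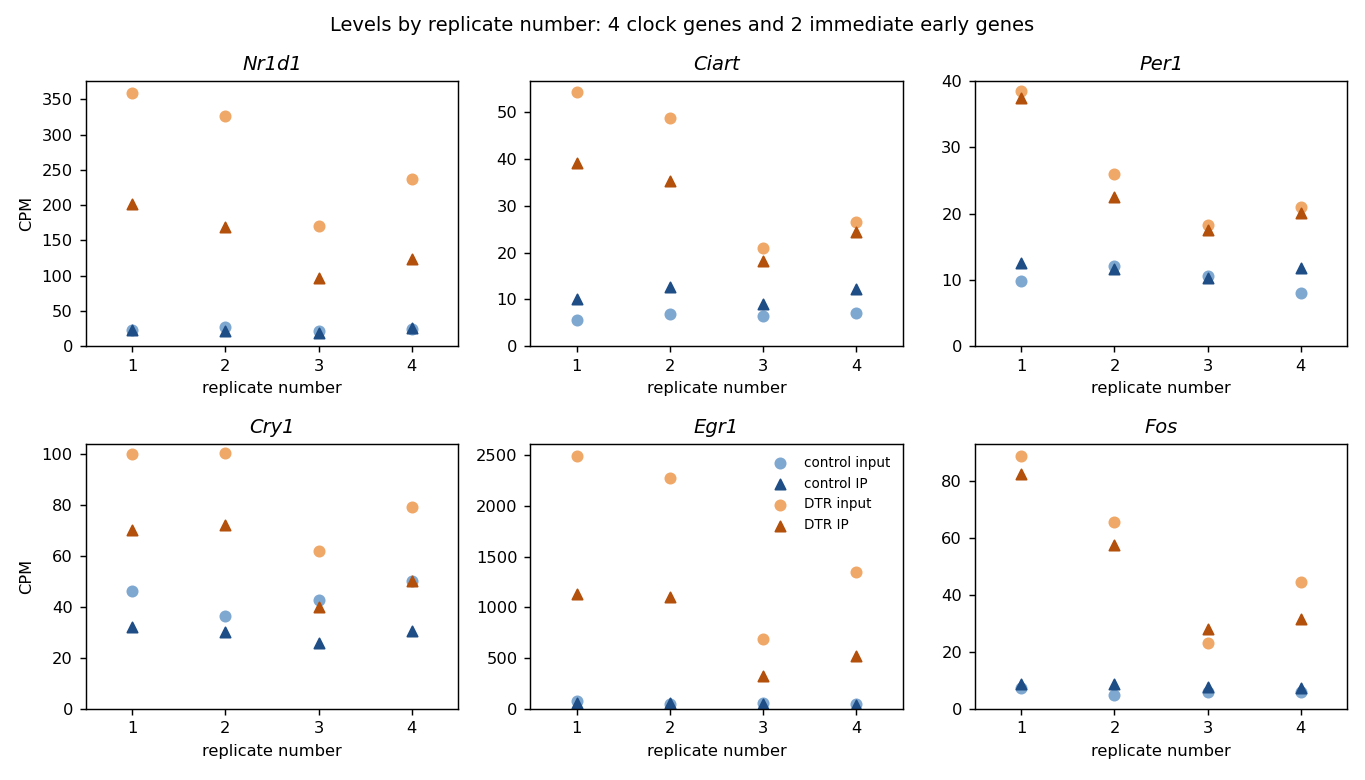
CPM (y axis, from 0) against replicate number for 4 clock genes and for Egr1 and Fos, with input as circles and IP as triangles. In the DTR libraries replicate 3 is the lowest for all 6 genes, and the control libraries lie low for Nr1d1, Egr1 and Fos. Replicate numbers have no order of their own.

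Nr1d2 and Hlf of the wider clock machinery rose in both fractions, and Rorb fell in both. Of 21 further clock genes, all tested, 3 rose and 1 fell in input, and 3 rose and 2 fell in IP, beside 12.4% and 15.7% of all tested genes in either direction. Their median LFC was 0.13 in input and -0.08 in IP. The activator paralogues Npas2 and Arntl2 and the bHLH repressors Bhlhe40 and Bhlhe41 did not pass in either.

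Nr1d2, the paralogue of Nr1d1 with the same repressive role, was 106, 97.8, 78.6 and 105 CPM in control input and 299, 333, 192 and 225 CPM in DTR input. In IP it was 53.3 to 87.5 CPM in controls and 88.9 to 186 CPM after damage. All DTR libraries were above all controls of their kind, with an LFC of 1.40 in input (SE 0.21, adjusted p = 0.00011) and 0.88 in IP (SE 0.21, adjusted p = 0.0067).

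Rorb, a nuclear receptor of the ROR family that activates the elements REV-ERB proteins repress, fell. It was 39.2, 33.7, 28.5 and 38.9 CPM in control input and 14.2, 17.4, 15.2 and 18.8 CPM in DTR input. In IP it was 45.7, 52.4, 47.4 and 38.7 CPM in controls and 9.13, 10.2, 7.49 and 10.2 CPM after damage. The groups did not overlap, and the LFC was -1.10 in input (SE 0.14, adjusted p = 1.7e-05) and -2.28 in IP (SE 0.14, adjusted p = 1.5e-09). The fall in IP minus that in input was -1.17 (adjusted p = 0.069), and blocking on the pool brought the adjusted p to 0.023. Rora, its relative, fell in IP (LFC -0.45, adjusted p = 0.040), a call lost without any one of 7 libraries (control input replicate 2 or 3, control IP replicate 1, 2 or 3, DTR IP replicate 1 or 4). In input its LFC was -0.41 (adjusted p = 0.077), which passed when the replicate number entered as a block (adjusted p = 0.017) and without control input replicate 1 or DTR IP replicate 1. Rorb and Rora fell beside the fall of supporting cell markers given above, whose part was not tested.

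Hlf, a factor of the DBP family, rose by an LFC of 0.65 in input (adjusted p = 0.0061) and 0.63 in IP (adjusted p = 0.0065). Its groups overlapped in IP but not in input. Its family member Tef rose by 0.44 in input (adjusted p = 0.042), where the groups overlapped. The call of Tef was lost without control input replicate 1, 2 or 3, DTR input replicate 1, 2 or 4 or control IP replicate 1. Timeless, which is also a replication fork protein, rose in IP from 5.49 to 7.81 CPM in controls to 9.08 to 13.8 CPM after damage (LFC 0.67, adjusted p = 0.0093), and in input its LFC was 0.14 (adjusted p = 0.71).

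**Figure D5:**
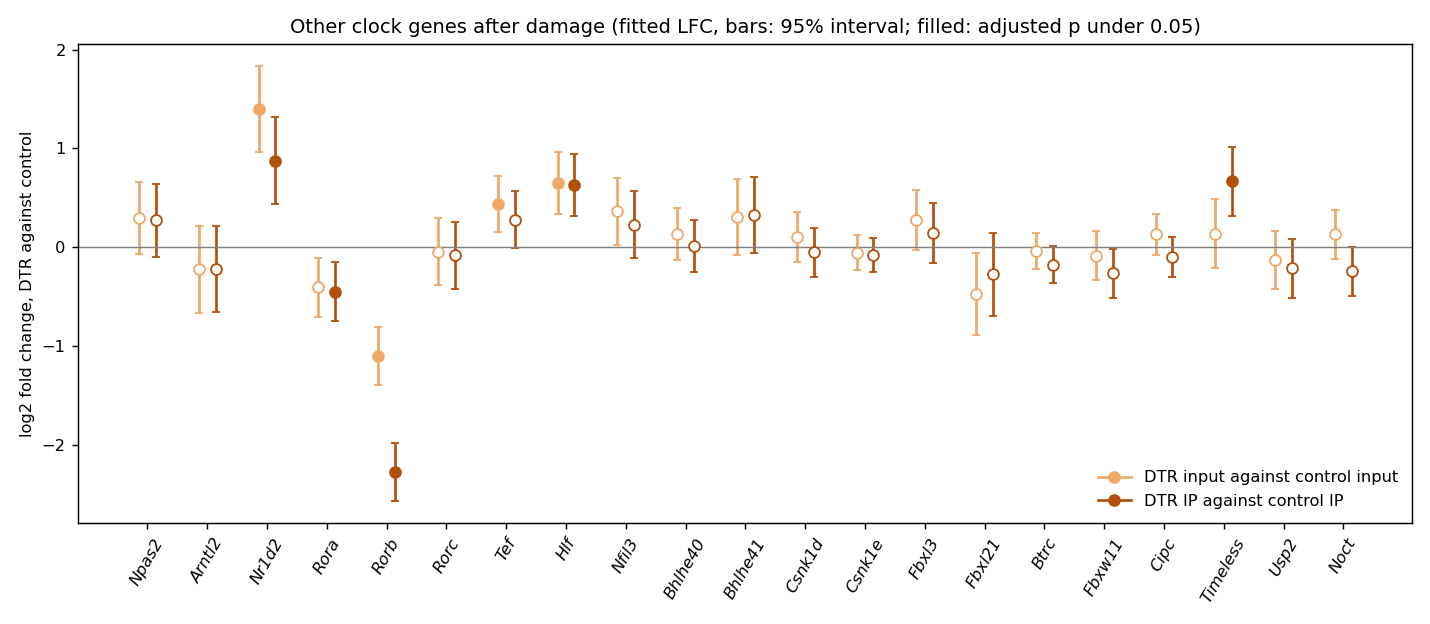
LFC (y axis) of DTR against control for 21 further clock genes in input (light) and IP (dark) with 95% intervals, filled where the adjusted p was under 0.05. Nr1d2 and Hlf lie above 0 and Rorb below 0 in both.

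The genes whose pattern over the 16 libraries was most like that of a member are given as a description, since all libraries share the 2 genotypes and their pools. For Nr1d1 they were 5031425E22Rik (Pearson r = 0.994 on log2 CPM), Egr1 (0.990) and Cnbd2 (0.985). For Ciart they were Gpr19 (0.973), Fos (0.966), Pim3 (0.962), Zfp335os (0.961) and Phf7 (0.960). For Arntl, which did not pass after damage, they were Clic6 (0.941), Epha1 (0.940) and Sgsm1 (0.940). Among the members, Ciart was most like Per1 (0.95), Nr1d1 (0.93) and Dbp (0.86), and Arntl was most unlike Clock (-0.78) and Per3 (-0.70). The 16 libraries mix input and IP, so r also takes in differences between the fractions. For IP against input, the LFC of Arntl was -0.23 in control, which did not pass, and -0.45 in DTR libraries. That of Clock was 0.85 and 0.94, and that of Per3 0.55 and 0.63. The part of these differences in r was not tested.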

How the data were processed

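RNA-seq of input and ribosome IP from 4 control and 4 DTR pools gave 16 libraries, made with a low-input kit that does not mark strand. The authors deposited 1 table per library of CPM, which are read counts scaled to sum to 1000000. The study's methods name HISAT2 and HTSeq, whereas the submitters' processing notes name TopHat. The annotation release and strand setting are not given in the sources used here. Each deposited CPM value was a whole multiple of the worth of 1 read (tolerance 0.01 reads), so read counts were recovered, with 28089836 to 41966310 per library, and 3 reads equal 0.0715 to 0.107 CPM. Such limits cover counting error only.

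Genes that reached 0.5 CPM in every replicate of any group (16994) were kept, quantile normalized and tested as log2(CPM + 0.5) with limma 3.58.1 (trend, two-sided, R 4.3.3) in 1 model of the 4 groups, with Benjamini-Hochberg adjustment over all tested genes. Fold changes on this scale understate the change of low genes. Separation was computed on levels with a floor at the 10th percentile (1.08 CPM). Alternatives were edgeR 4.0.16 and DESeq2 1.42.0 on the recovered counts, other scalings, pseudocounts and filters, and leaving out each library. The script was tested on simulated data. Ciart had been planned for a test between control IP and control input, which was dropped because those values entered its choice. p-values of the main fit measure the spread between the libraries of a group and treat the IP and input of a pool as independent.

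Deviations of same-numbered libraries correlated for every pair of groups that shared a genotype or a fraction (lowest r 0.288). These pairs were matched by pool between IP and input and by number between genotypes, so blocked fits are given where they changed a call. The members and gene lists were chosen with earlier results of these data known. Further genes were named by rule: the genes most correlated with Ciart, Nr1d1 and Arntl, and some of the wider list. The latter had, in input or in IP after damage, an adjusted p under 0.05, an absolute LFC of at least 0.5 and no overlap. Others of that list (Tef, Rora and those named as groups) were named after their values were seen. Exon lengths and positions are from GENCODE M21 (GRCm38).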

Additional observations from a re-analysis of the deposited data

Results flagged for a closer look

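Per2 in DTR input replicate 3 was 11.3 CPM, set apart from the other 3 DTR input libraries at 19.5 to 20.7 CPM (gap over range 0.872). Cry2 in DTR IP replicate 2 was 239 CPM, set apart from the others at 130 to 146 CPM (gap over range 0.850). These were 2 of 40 combinations of member and group, and chance gives about 1 in 20. For Nr1d1 the fitted change after damage was smaller in IP than in input, with a difference of -0.72 on the log2 scale. This difference did not pass in the main fit (limma, adjusted p = 0.89). It passed with the pool as a block (limma, adjusted p = 0.047) and did not pass in the other 24 of 25 alternatives.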

How the results depend on the processing

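No fold change of a member that was called reversed under any alternative. Of 1290 recomputed member fold changes, 29, in 11 of 50 results, crossed the threshold of adjusted p under 0.05, and 1261 did not. These counts include Ciart, which was not tested and so could not cross it. Some fold changes that did not pass changed sign, such as that of Clock in IP after damage (LFC -0.04 to 0.25). Without a filter on low values, which tests 47729 genes, 3 members differed between control IP and control input and 3 wider clock genes changed in IP. With the pool as a replicate block, 1 member (Nr1d1) had a different change in IP and input. The blocks also added Per2 in IP after damage (adjusted p = 0.049), Per2 in DTR IP against DTR input (0.019) and Dbp in control IP against control input (0.012), and changed no other call of a member. In the wider list the number block added Rora in input (0.017) and Fbxw11 in IP (LFC -0.27, adjusted p = 0.043). Leaving out 1 library gave 4 to 6 members in each damage comparison, 5 to 6 between control IP and control input and between DTR IP and DTR input, and 0 for the difference. Of the wider list, 3 to 5 changed in input and 4 to 5 in IP. Other scalings moved the median LFC of all tested genes by less than 0.1. Every member had 231 or more reads in each library, so depth limited these results less than the 4 pools per group.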
